A study of Mus musculus with 9 samples.

Results

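The respiratory chain and the ATP synthase of the mitochondrial inner membrane were followed through their nuclear-encoded subunits in the bone marrow of ERG transgenic mice with myeloid leukemia and of wild type mice. Members were the genes whose single symbol in the probe annotation starts with Nduf (assembly factors of the Ndufaf series excepted), Uqcr, Cox4 to Cox8 or Atp5, together with Sdha, Sdhb, Sdhc and Sdhd, and pseudogenes were left out. The rule, which uses names and no measured value, found 82 of the 19938 genes tested. Complex I supplied 34 of them, complex II 4, complex III 8, complex IV 19 and complex V, the ATP synthase, 17. Ndufa4 and its paralog Ndufa4l2 were counted with complex IV.

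Electrons from NADH enter the chain at complex I and those from succinate at complex II, pass over ubiquinone to complex III and over cytochrome c to complex IV, which hands them to oxygen. Complexes I, III and IV pump protons as they work, and the ATP synthase lets the protons back through a ring of c subunits that drives ATP formation in its F1 head. Most subunits are encoded in the nucleus and a few in mitochondrial DNA, so each complex is put together from the products of both genomes with the help of assembly factors. In blood, resting stem cells rely little on this machinery, dividing progenitors and early erythroid cells rely on it more, and mature neutrophils hold few active mitochondria.

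RNA was hybridised to Affymetrix whole-transcript arrays, 3 in each of 3 groups, and all mice carried the strain label C57BL6. The ERG leukemias were marrow of 3 mice with an ERG transgene, killed when signs of leukemia appeared, each read on 1 array. Lineage-negative marrow came from 9 wild type mice, was depleted with a kit that removes cells bearing mature lineage markers, and was pooled 3 mice to an array. Whole marrow came from 3 other wild type mice and was not depleted, so each of those arrays also stands for 1 mouse. All marrow was from the femur. The labels give no age and no sex, and they do not name the promoter or the species of the transgene. The probe set for the mouse gene Erg read 97.2, 73.2 and 79.7 in the leukemias, 129, 93.9 and 115 in lineage-negative and 152, 194 and 129 in whole marrow, which checks nothing about a transgene of unstated species.

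Values are RMA intensities on a linear scale, with array medians between 32.3 and 34.4 and a median of 33.4 over all probe sets. A group mean below that median is called dim here, and 5 members were dim in at least 1 group (Cox7a1, Cox7b2, Cox8b, Cox8c and Ndufa4l2). Intensities depend on the probes, so the level of one gene was not set against that of another. Whole marrow array 3 stood apart among the members: it gave the lowest value of its group in 56 of 82, and its median over the members lay 0.11 below the whole marrow mean on the log2 scale, against 0.09 above it for array 1 and 0.06 above it for array 2. Results that rest on whole marrow are therefore also given without that array. In the lineage-negative group array 3 gave the lowest value in 54 members and array 2 the highest in 48. Within groups the members spread on the log2 scale by a median SD of 0.124 in the leukemias (0.127 over all genes), 0.109 in the lineage-negative pools (0.101) and 0.173 in whole marrow (0.127).

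A part of the subunit genes had higher RNA levels in leukemic than in wild type whole marrow, by less than 1 log2 unit. By limma, with p-values adjusted over all 19938 genes and a threshold of 0.05, 22 of the 82 members (26.8%) were higher in the leukemias and 2 (2.44%) were lower, while 58 did not pass. Of all genes tested 14.6% were higher and 9.93% were lower. The median log2 difference was 0.27 over the members and -0.02 over all genes, and 68 members had a difference above 0. At an unadjusted p under 0.05 there were 37 members, beside 34.9% of all genes. The share called also depends on brightness: with genes dim in all groups left out, 24 of 79 members (30.4%) were higher beside 26.9% of the genes kept, and 2 were lower beside 17.8%. The leukemia arrays all lay above the whole marrow arrays in 32 members and all below them in 3 (Ndufb2, Cox6a2 and Cox8b), where 19.4% and 17.7% of all genes were so placed. Without whole marrow array 3 the count was 17 higher and 1 lower, and the median 0.21. Of the 19938 genes 2404 were then higher and 1644 lower, where 2901 and 1980 were with all arrays.

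Against lineage-negative marrow no subunit passed the test in either direction. By limma 0 of 82 members were higher and 0 lower, where 2.95% and 5.74% of all genes were, and the robust fit with an intensity trend also gave 0. With genes dim in all groups left out 0 passed as well, beside 5.84% higher and 9.96% lower of the genes kept. The smallest adjusted p was 0.0611, for Ndufab1. At an unadjusted p under 0.05 there were 12 members, all with lower leukemia means, which is 12 of 82 beside 22.6% of all genes. The differences were small: the median was -0.10 (0.01 over all genes), 63 were below 0 and 19 above, and the 95% interval lay within 1 log2 unit of 0 in 81 members, all but Cox6b2, and within 0.5 in 58. All 3 leukemia arrays lay below all lineage-negative arrays in 14 members and above them in 2, where 16.3% and 11.6% of all genes were so placed.

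More subunit genes were higher in lineage-negative marrow when it was set against whole marrow. Of the 82 members 40 (48.8%) were higher by limma and 1, Cox6a2, was lower, against 21.7% and 13% of all genes, and the median log2 difference was 0.39 over the members and -0.04 over all genes. With genes dim in all groups left out, 40 of 79 members (50.6%) were higher, and 1 was lower, beside 38.8% and 20% of the genes kept. At an unadjusted p under 0.05 there were 49 members, beside 42.9% of all genes. Without whole marrow array 3 there were 29 higher and 1 lower, with a median of 0.33. Of the 19938 genes 3905 were then higher and 2293 lower, where 4328 and 2587 were with all arrays. Leaving out lineage-negative array 2 lost 12 of the 41 calls, and leaving out whole marrow array 3 lost 11. Without that lineage-negative array 3611 of all 19938 genes were higher and 1863 lower. This comparison and that of the leukemias with whole marrow share the same 3 whole marrow arrays. The mean of the leukemias lay between the means of both wild type groups in 65 members (79.3%), and in 53.6% of all genes.

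**Figure D1:**
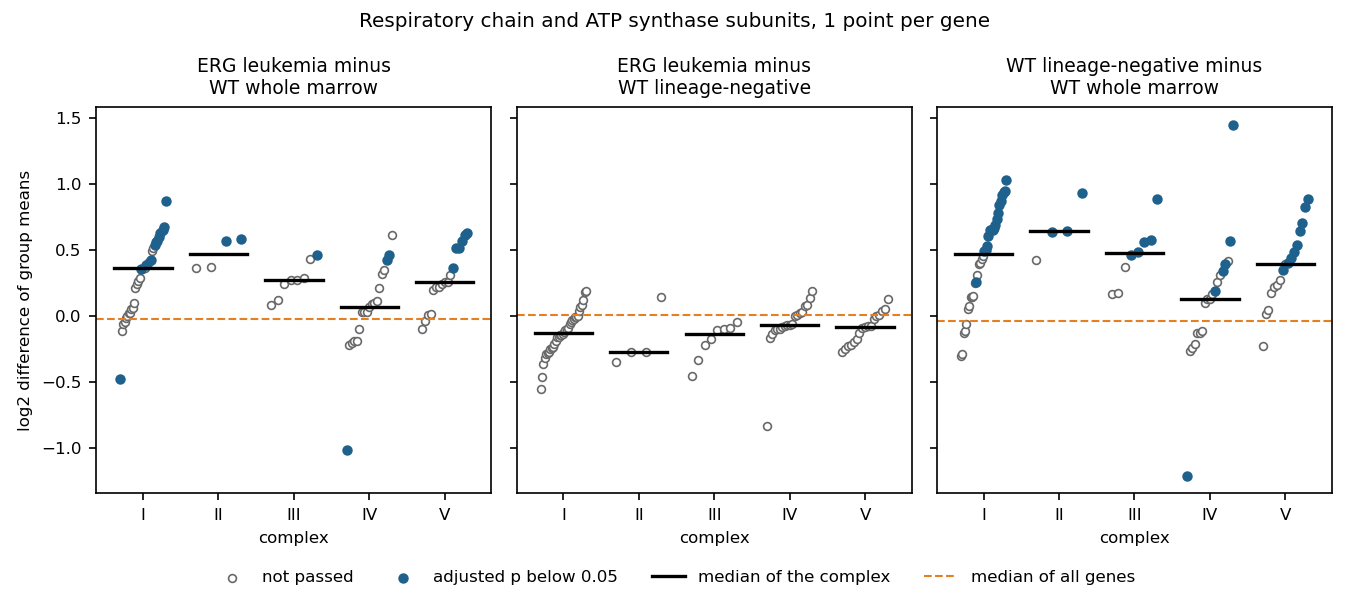
Log2 difference of group means (vertical axis, log2 units) for each of the 82 genes by complex, in panels for ERG leukemia minus whole marrow, ERG leukemia minus lineage-negative marrow and lineage-negative minus whole marrow. Filled points passed an adjusted p of 0.05 by limma, black bars are the medians of a complex and the dashed line is the median of all genes. Filled points number 24 in the left panel, 0 in the middle and 41 on the right.

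The cell makeup of the groups differed as well. Among 8 measured erythroid marker genes 5 were higher in the leukemias than in whole marrow, and their summed intensity ran from 3612 to 7042 in the leukemias, 3902 to 5355 in lineage-negative and 1126 to 3495 in whole marrow. All 9 B cell markers fell in the leukemias relative to whole marrow (sums of 383 to 568 in the leukemias, 328 to 494 in lineage-negative and 1260 to 5397 in whole marrow), and 5 of the 9 were dim in the leukemias. Of 10 neutrophil markers 7 fell in the leukemias relative to whole marrow, and the sums were 12710 to 19000 in the leukemias, 597 to 1826 in lineage-negative and 33040 to 39590 in whole marrow. T and NK cell markers were lower in 4 of 7 (517 to 764 in the leukemias, 798 to 1724 in lineage-negative marrow, 1304 to 1683 in whole marrow), and monocyte and macrophage markers in 0 of 7 (2166 to 5774 in the leukemias, 1275 to 2804 in lineage-negative marrow, 4045 to 5362 in whole marrow). Megakaryocyte markers were lower in 2 of 4 (408 to 1966 in the leukemias, 5040 to 8232 in lineage-negative marrow, 2100 to 3125 in whole marrow), and stem and progenitor markers in 1 of 5 (387 to 533 in the leukemias, 1353 to 2239 in lineage-negative marrow, 573 to 671 in whole marrow). In lineage-negative marrow all 10 neutrophil and all 9 B cell markers were lower than in whole marrow, and 4 of 8 erythroid and 4 of 5 stem and progenitor markers were higher. The leukemias differed from lineage-negative marrow too, with 9 of 10 neutrophil and 1 of 7 monocyte and macrophage markers higher. Lower there were 3 of 5 stem and progenitor, 2 of 4 megakaryocyte and 1 of 7 T and NK cell markers. In that comparison 0 of 8 erythroid and 0 of 9 B cell markers passed. The part of these cell types in the subunit results was not tested, and in bulk RNA fewer cells of a type and less RNA per cell cannot be told apart.

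Complex I, which oxidises NADH, made up 34 of the 82 members. It held 11 of the 22 that were higher in the leukemias than in whole marrow, and 1 of the 2 that were lower. Of its genes 11 of 34 were thus higher, beside 14.6% of all genes (26.9% with genes dim in all groups left out). Its median log2 difference was 0.36 over 34 genes (0.28 without whole marrow array 3), and against lineage-negative marrow it was -0.13. The best separated member was Ndufv1, the flavoprotein subunit that takes the electrons from NADH. Ndufv1 read 529, 555 and 529 in the ERG leukemias, 586, 652 and 567 in lineage-negative and 290.0, 289 and 304 in whole wild type marrow. The 3 whole marrow arrays lay far below the other 6, and the leukemias lay just under lineage-negative marrow. The log2 difference was 0.87 ± 0.07 against whole marrow (1.83-fold, limma adjusted p = 0.000482) and -0.16 ± 0.07 against lineage-negative marrow (limma adjusted p = 0.248), and lineage-negative marrow stood 1.03 ± 0.07 above whole marrow (limma adjusted p = 6.16e-05).

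The promoter of Ndufv1 is shown because no member rose more in the leukemias relative to whole marrow, and it is set against the promoters of complexes IV and V further on. It is the 250 bases before the gene's start in RefSeq's GRCm38.p6 promoter table, at chr19:4012756-4013005 on the minus strand, written 5′ to 3′, and the capitals mark an E-box, CACGTG, a motif bound by MYC and USF proteins that reads the same on both strands.
Ndufv1: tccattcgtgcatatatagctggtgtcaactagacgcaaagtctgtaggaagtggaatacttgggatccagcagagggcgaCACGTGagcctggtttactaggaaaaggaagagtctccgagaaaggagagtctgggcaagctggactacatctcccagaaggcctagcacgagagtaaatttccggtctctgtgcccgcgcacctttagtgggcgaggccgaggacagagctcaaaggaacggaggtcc
The E-box starts at base 82 of this window. No copy of the ETS motif CCGGAAG, the NRF1 half-site CATGCGC or the YY1 motif AAGATGG lies in it on either strand.

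The other catalytic core subunits of complex I differed among themselves. The 6 core genes analysed, Ndufv1 included, are among those that carry the flavin, the iron-sulfur clusters and the ubiquinone site, and the grouping was chosen after the values were seen. In the leukemias 4 of 6 were higher than in whole marrow, with a median of 0.46, and 5 of 6 were higher in lineage-negative marrow, with a median of 0.65. Over all genes 14.6% and 21.7% were higher in these comparisons, and 26.9% and 38.8% with genes dim in all groups left out. Ndufs1, which holds several iron-sulfur clusters, read 237, 274 and 258 in the ERG leukemias, 273, 313 and 251 in lineage-negative and 178, 170.2 and 169 in whole wild type marrow. Its leukemia and lineage-negative values overlapped, and both stood clear of whole marrow (0.57 ± 0.10 for leukemia minus whole marrow, limma adjusted p = 0.00385). Ndufs3 read 431, 427 and 526 in the ERG leukemias, 534, 639.9 and 512 in lineage-negative and 295, 314 and 269 in whole wild type marrow, again with whole marrow lowest (0.65 ± 0.12, limma adjusted p = 0.00534). Ndufs7, whose iron-sulfur cluster passes electrons to ubiquinone, read 1699, 1910.5 and 1792 in the ERG leukemias, 2162, 2209.9 and 2039 in lineage-negative and 1393, 1413 and 1401 in whole wild type marrow and rose by 0.36 ± 0.07 in the leukemias (limma adjusted p = 0.00721), a call lost with 75th percentile centring (0.28) and cyclic loess (0.21). Ndufv2, the partner of Ndufv1, had a difference of 0.21 ± 0.09 and Ndufs8 of 0.10 ± 0.14, and neither passed (limma adjusted p = 0.11 and 0.708).

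Among the 28 accessory subunits of complex I, 7 were higher in the leukemias than in whole marrow and 1 was lower, with a median of 0.36. Over all genes 14.6% were higher and 9.93% lower, and 26.9% and 17.8% with genes dim in all groups left out. The 7 of 28 lie close to the share higher among the genes kept. Ndufb10, a subunit of the membrane arm, read 87.2, 90.1 and 99.7 in the ERG leukemias, 77.5, 115 and 99.7 in lineage-negative and 49.6, 66.9 and 57.7 in whole wild type marrow. All leukemia arrays exceeded all whole marrow arrays, by 0.68 ± 0.16 (limma adjusted p = 0.0148), and the call was lost without whole marrow array 1 (0.57). Ndufab1, the mitochondrial acyl carrier protein that is also a subunit of complex I, read 268, 288 and 307 in the ERG leukemias, 343, 394 and 336 in lineage-negative and 186, 178 and 192 in whole wild type marrow. The groups did not overlap in any pair for Ndufab1, with leukemia at 0.63 ± 0.09 against whole marrow (limma adjusted p = 0.00175) and -0.31 ± 0.09 against lineage-negative marrow (limma adjusted p = 0.0611, 95% interval -0.51 to -0.12). Ndufa10 (0.60 ± 0.11), Ndufc1 (0.56 ± 0.13), Ndufb5 (0.54 ± 0.10), Ndufb9 (0.42 ± 0.11) and Ndufc2 (0.38 ± 0.09) were the other accessory members that rose. Of these, Ndufa10 and Ndufb5 passed in every alternative run, Ndufc1 was lost without leukemia 3 (0.46) and after cyclic loess (0.38), Ndufc2 was lost with 75th percentile centring (0.30), and Ndufb9 was lost in both scalings (0.34 and 0.26) and when leukemia 1 (0.41), leukemia 3 (0.42), or the first (0.41) or the third (0.35) whole marrow array was left out.

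Ndufb2, another membrane arm subunit, was lower in the leukemias. It read 53.9, 47.0 and 64.5 in the ERG leukemias, 66.0, 62.8 and 58.4 in lineage-negative and 88.0, 66.8 and 74.9 in whole wild type marrow, so every leukemia lay below every whole marrow array while leukemia 3 fell within the lineage-negative range (-0.48 ± 0.14, limma adjusted p = 0.0343). That call was kept in 8 of 15 alternatives and was lost, at -0.49 to -0.37, when any of 6 arrays was left out (leukemias 1 and 2, the second and the third lineage-negative array, the first and the third whole marrow array), and with only the 2 groups compared. The remaining 22 complex I genes did not pass against whole marrow and ran from -0.12 (Ndufv3) to 0.64 (Ndufa9, limma adjusted p = 0.0541). Among them Ndufb7, Ndufs4, Ndufa13, Ndufb11, Ndufa3, Ndufa6 and Ndufa1 lay between -0.05 and 0.06, and Ndufa2, Ndufs6, Ndufa8, Ndufa7, Ndufb8, Ndufa5 and Ndufb6 between 0.36 and 0.51. In lineage-negative marrow 18 complex I genes were higher than in whole marrow, with a median of 0.47, and Ndufa2, Ndufa9, Ndufb6, Ndufb8, Ndufs5, Ndufs6 and Ndufv2 are the ones among them that did not pass in the leukemias. The 18 came to 14 with centring, with 2 lower, to 11 after cyclic loess, with 3 lower, and to 14 without whole marrow array 3. Over all genes 21.7% were higher in this comparison, and 38.8% with genes dim in all groups left out. Of the 7 named, Ndufa2 passed in all 16 alternatives, Ndufs6 in 14, Ndufb8 in 13, Ndufb6 in 11, Ndufa9 in 10, Ndufs5 in 5 and Ndufv2 in 4.

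**Figure D2:**
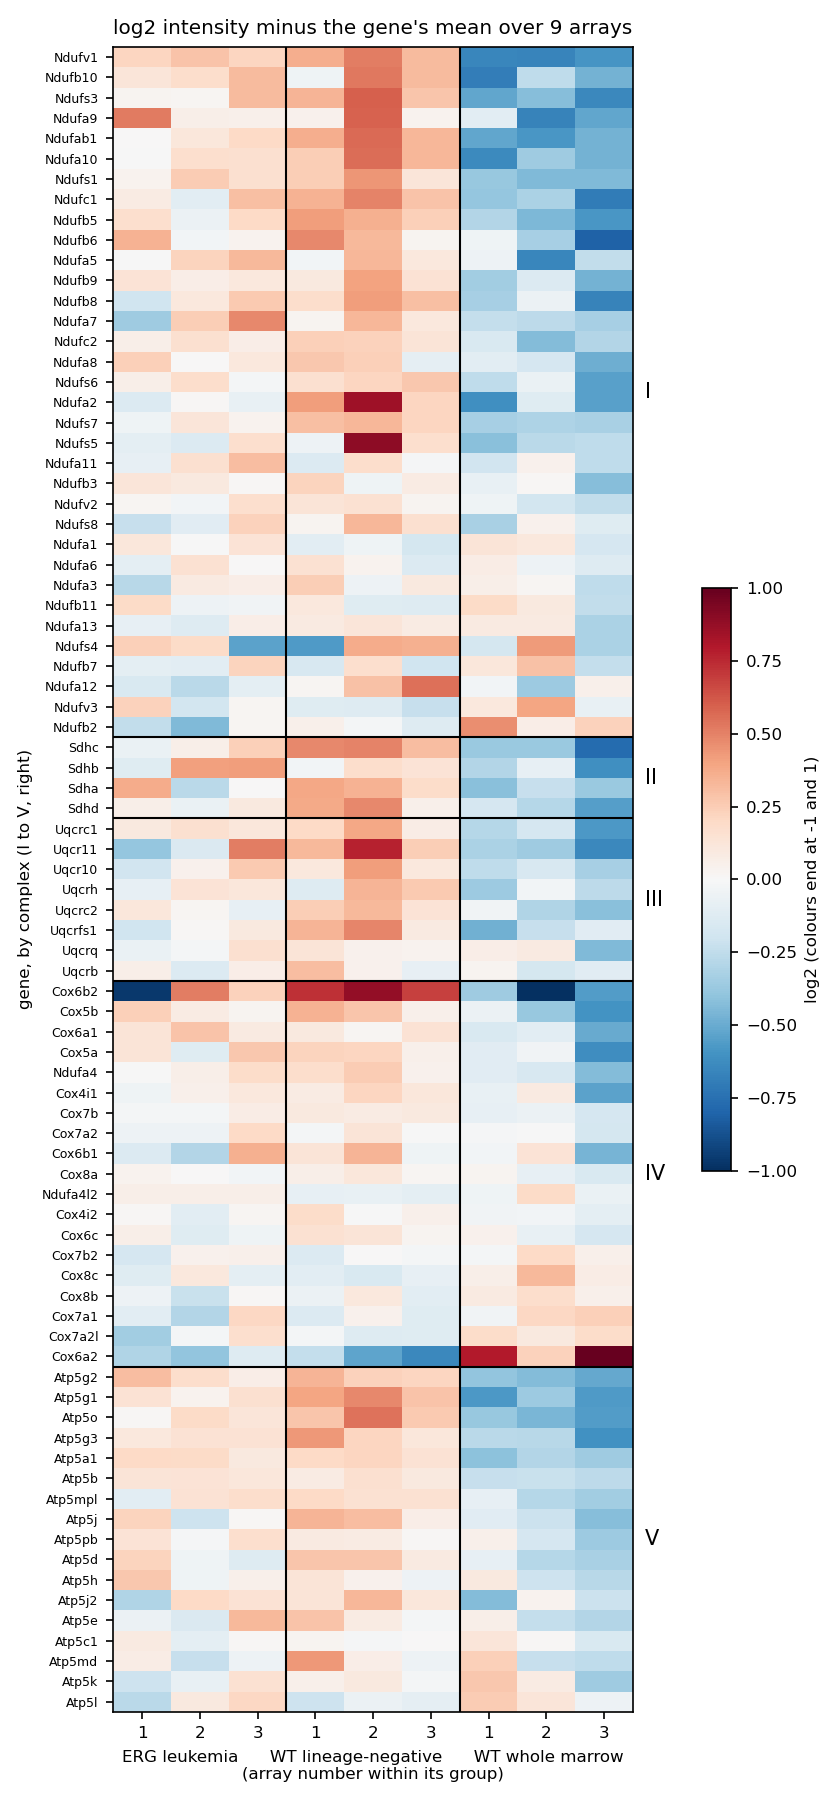
Log2 intensity of each of the 82 genes (rows, by complex I to V) on each of the 9 arrays (columns, ERG leukemia left, lineage-negative marrow middle, whole marrow right), as the difference from the gene's mean over the 9 arrays. Red is above that mean and blue below it, and colours end at 1 log2 unit. Whole marrow array 3 holds the lowest value of its group in 56 genes, and Cox6a2 and Ndufb2 run against most other rows.

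Complex II oxidises succinate and is the point where the chain meets the TCA cycle. Its 4 genes had a median of 0.47 in leukemia minus whole marrow. Of these 2 of 4 were called higher, beside 14.6% of all genes (26.9% with genes dim in all groups left out). Sdhc, a membrane anchor, read 494, 539 and 609 in the ERG leukemias, 720.5, 728 and 642 in lineage-negative and 401, 399 and 303 in whole wild type marrow. The 3 groups formed separate ranges, with leukemia 0.58 ± 0.13 above whole marrow (limma adjusted p = 0.0121, lost after cyclic loess at 0.39) and -0.35 ± 0.13 relative to lineage-negative marrow (limma adjusted p = 0.143). Sdhb, the iron-sulfur subunit, read 247, 357 and 358 in the ERG leukemias, 264, 303 and 295 in lineage-negative and 219, 253 and 176 in whole wild type marrow. Leukemia 1 fell inside the whole marrow range while leukemias 2 and 3 were the highest of all 9 arrays. Its log2 difference of 0.57 ± 0.17 passed narrowly (limma adjusted p = 0.0457) and was kept in 5 of 15 alternatives. It was lost, at 0.42 to 0.58, when any lineage-negative array, leukemia 2, leukemia 3, or the first or the third whole marrow array was left out, in both scalings (0.48 and 0.38) and with only the 2 groups compared.

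Sdha, the flavoprotein that binds succinate, read 861, 553 and 667 in the ERG leukemias, 872, 845 and 756 in lineage-negative and 499.5, 567 and 514 in whole wild type marrow. The leukemias spread widely, with leukemia 2 within the whole marrow range, and the difference of 0.37 ± 0.15 did not pass (limma adjusted p = 0.11). Sdhd, the second anchor, read 191, 175 and 196 in the ERG leukemias, 238, 256 and 190.4 in lineage-negative and 164, 150.3 and 125 in whole wild type marrow and stood at 0.36 ± 0.13 in leukemia minus whole marrow (limma adjusted p = 0.0872), without overlap. In lineage-negative marrow Sdhc (0.93 ± 0.13), Sdha (0.65 ± 0.15) and Sdhd (0.64 ± 0.13) were higher than in whole marrow, with limma adjusted p-values of 0.000703, 0.00943 and 0.00583, while Sdhb (0.42 ± 0.17) did not pass (limma adjusted p = 0.0957). The calls of Sdha and Sdhd were lost after cyclic loess, at 0.42 and 0.36.

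In complex III, which moves electrons from ubiquinol to cytochrome c, all 8 genes had leukemia means above whole marrow (median 0.27) and below lineage-negative marrow (median -0.14), but 1 passed in the first comparison and 0 in the second. Over all genes 14.6% were higher in the first and 5.74% lower in the second, and 26.9% and 9.96% with genes dim in all groups left out. Cyc1, cytochrome c1, is a catalytic subunit of complex III whose symbol falls outside the naming rule, so it is not among the 8. It has the largest change of the cytochrome c list in lineage-negative against whole marrow, and its leukemia values are given after they were seen. Cyc1 read 430.5, 406 and 429 in the ERG leukemias, 504, 542 and 459.9 in lineage-negative and 295, 268 and 247 in whole wild type marrow, and the 3 groups formed separate ranges. It was higher in the leukemias than in whole marrow (0.65 ± 0.09, limma adjusted p = 0.00192) and in lineage-negative than in whole marrow (0.89 ± 0.09, limma adjusted p = 0.000179). Uqcrc1, a core protein on the matrix side, read 806, 843 and 817 in the ERG leukemias, 867, 986 and 793 in lineage-negative and 621, 673 and 509 in whole wild type marrow. The leukemias lay close together and above all whole marrow arrays (0.46 ± 0.12, limma adjusted p = 0.0219). The call was kept in 10 of 15 alternatives and lost without leukemia 2 (0.44) or 3 (0.47), without whole marrow array 3 (0.35) and in both scalings (0.38 and 0.29). Uqcrfs1, the Rieske iron-sulfur protein, read 84.3, 97.8 and 104 in the ERG leukemias, 122, 136 and 103 in lineage-negative and 69.4, 82.6 and 89.6 in whole wild type marrow. It was higher in lineage-negative than in whole marrow (0.58 ± 0.14, limma adjusted p = 0.0102, lost after cyclic loess at 0.33), whereas leukemia minus whole marrow was 0.24 ± 0.14 (limma adjusted p = 0.253).

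Uqcr11, the smallest subunit of complex III, read 129.6, 153 and 242 in the ERG leukemias, 212, 289 and 201 in lineage-negative and 136, 132 and 109 in whole wild type marrow. Leukemia 3 lay within the lineage-negative range and leukemia 1 within the whole marrow range. The difference was 0.88 ± 0.23 for lineage-negative minus whole marrow (limma adjusted p = 0.0169, lost without whole marrow array 3 at 0.78, without lineage-negative array 2 at 0.72 and after cyclic loess at 0.61) and 0.43 ± 0.23 for leukemia minus whole marrow (limma adjusted p = 0.233). Uqcrc1, Uqcrc2 and Uqcr10 were also higher in lineage-negative marrow, which made 5 of 8, beside 21.7% of all genes (38.8% with genes dim in all groups left out). That count came to 4 with centring, 0 after cyclic loess (Uqcrc1 0.34, Uqcrc2 0.28 and Uqcr10 0.20) and 3 without whole marrow array 3, and Uqcr10 was lost in 5 of 16 alternatives. Uqcrb, Uqcrh and Uqcrq passed in no comparison.

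Complex IV, cytochrome c oxidase, showed the smallest shift of the 5 complexes. Of its 19 genes 2 were higher in the leukemias than in whole marrow (14.6% of all genes), 1 was lower (9.93% of all genes) and 16 did not pass. With genes dim in all groups left out these shares were 26.9% and 17.8%. Cox8b, Cox8c and Ndufa4l2, dim in all groups, are among the 19. The median was 0.07, turned to -0.01 with 75th percentile centring and to -0.07 after cyclic loess, and was 0.01 without whole marrow array 3. Against lineage-negative marrow the median was -0.07, which turned to 0.01 after cyclic loess. In lineage-negative against whole marrow 21.7% of all genes were higher, and 38.8% with genes dim in all groups left out. Of the complex IV genes 5 of 19 (26.3%) were higher and 1 was lower, with a median of 0.13. These 5 came to 2 with centring, to 1 after cyclic loess (2 lower), to 3 when the leukemias were left out of the fit (2 lower) and to 2 without whole marrow array 3, and of the calls Cox7b was kept in 1 of 16 alternatives and Cox6a1 in 4. Whether complex IV differs from the other complexes was not tested. Its 11 genes other than the tissue isoforms had medians of 0.11 in leukemia minus whole marrow and 0.26 in lineage-negative minus whole marrow, with 2 and 4 of them higher. The 2 came to 0 in both scalings, when lineage-negative marrow was left out of the fit and without whole marrow array 3. The 4 came to 1 with centring, to 0 (and 1 lower) after cyclic loess, to 2 (and 1 lower) without the leukemias in the fit and to 1 without that array.

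Cox5b, a subunit on the matrix side, read 1020.2, 917 and 882 in the ERG leukemias, 1098, 1046 and 896 in lineage-negative and 830.0, 666 and 571 in whole wild type marrow. The leukemias lay above all whole marrow arrays (0.46 ± 0.14, limma adjusted p = 0.0445), but the call was kept in 4 of 15 alternatives. It was lost, at 0.34 to 0.51, when any single leukemia or lineage-negative array, or the second or the third whole marrow array, was left out, in both scalings (0.38 and 0.29) and with only the 2 groups compared. Cox6a1, the form of subunit 6A found in most tissues, read 533, 596 and 519 in the ERG leukemias, 521, 494 and 540.0 in lineage-negative and 438, 454 and 344 in whole wild type marrow. Its difference of 0.42 ± 0.11 passed (limma adjusted p = 0.0265) and was lost when leukemia 1 (0.44), leukemia 2 (0.36) or the third whole marrow array (0.30) was left out, in both scalings (0.34 and 0.24) and with only the 2 groups compared. Cox4i1, Cox5a, Cox6b1, Cox6c, Cox7a2, Cox7b, Cox8a and Ndufa4, the widely expressed subunits, had differences of 0.03 (Cox6c) to 0.35 (Cox5a) against whole marrow and did not pass. Cox7a2l stood at -0.22 ± 0.12 (limma adjusted p = 0.245).

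Cox6a1, which passed against whole marrow, and Cox6b1, which did not, are set side by side because both promoters hold the ETS motif CCGGAAG on the strand opposite the gene. Of 18 matched members that were higher in the leukemias than in whole marrow 3 held this motif, and of the 49 others 14 did. ERG belongs to the ETS family, and whether it acts on these promoters was not tested. Each line is the 250 bases before the start in RefSeq's GRCm38.p6 table, 5′ to 3′ on the minus strand, at chr5:115348959-115349208 for Cox6a1 and chr7:30626115-30626364 for Cox6b1. Capitals mark the ETS motif, read here as CTTCCGG, and in Cox6a1 also the NRF1 site GCGCATGCGC, which holds the half-site CATGCGC on both strands.
Cox6a1: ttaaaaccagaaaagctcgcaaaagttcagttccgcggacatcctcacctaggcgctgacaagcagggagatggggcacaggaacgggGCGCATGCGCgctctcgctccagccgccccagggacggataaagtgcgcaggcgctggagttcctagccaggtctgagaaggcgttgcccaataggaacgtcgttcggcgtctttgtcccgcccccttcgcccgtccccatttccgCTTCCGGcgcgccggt
Cox6b1: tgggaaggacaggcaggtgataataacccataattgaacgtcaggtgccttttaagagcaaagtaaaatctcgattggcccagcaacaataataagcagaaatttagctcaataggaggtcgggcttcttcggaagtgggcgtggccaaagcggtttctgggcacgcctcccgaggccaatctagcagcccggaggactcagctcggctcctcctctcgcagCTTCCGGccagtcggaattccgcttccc
The ETS motif starts at base 235 in Cox6a1 and at base 223 in Cox6b1, and the NRF1 site of Cox6a1 at base 89. Cox6b1 read 736, 662 and 1035 in the ERG leukemias, 887, 1027 and 789 in lineage-negative and 796, 891 and 588 in whole wild type marrow, with all 3 groups overlapping (0.09 ± 0.20, limma adjusted p = 0.811).

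Subunit isoforms that are known from single tissues gave the extreme values of complex IV. Cox6a2, the heart and skeletal muscle form of subunit 6A, read 52.5, 49.3 and 59.2 in the ERG leukemias, 55.0, 45.1 and 41.5 in lineage-negative and 113, 76.0 and 149 in whole wild type marrow. It was the lowest of all members, at -1.02 ± 0.22 in leukemia minus whole marrow (0.493-fold, limma adjusted p = 0.0113) and -1.21 ± 0.22 in lineage-negative minus whole marrow (limma adjusted p = 0.00295), and both calls held in every alternative. Its difference between leukemias and lineage-negative marrow was 0.19 ± 0.22 (limma adjusted p = 0.723). The paralog Cox6a1, at 0.42 in leukemia minus whole marrow, stood at 0.34 ± 0.11 in lineage-negative minus whole marrow (limma adjusted p = 0.0462), a call lost in 12 of 16 alternatives. Of 6 skeletal muscle marker genes 0 differed between any groups, their summed intensity was 173 to 179 in the leukemias, 169 to 184 in lineage-negative and 178 to 195 in whole marrow, and 4 of the 6 were dim in every group. The source of the Cox6a2 signal, muscle or any cell type of the marrow, was not tested.

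Cox6b2, the testis form of subunit 6B, read 72.1, 199.8 and 165 in the ERG leukemias, 232, 258 and 225 in lineage-negative and 109, 63.2 and 95.2 in whole wild type marrow. Lineage-negative marrow was high on all 3 arrays and whole marrow low on all 3, while the leukemias split, with leukemia 1 inside the whole marrow range and leukemias 2 and 3 between the wild type groups. It was 2.74-fold higher in lineage-negative than in whole marrow (1.45 ± 0.35, limma adjusted p = 0.0119) and this held in all 16 alternatives. The leukemias differed from whole marrow by 0.62 ± 0.35 (limma adjusted p = 0.267) and from lineage-negative marrow by -0.84 ± 0.35 (limma adjusted p = 0.204, 95% interval -1.64 to -0.03), the widest interval of any member. Its pooled SD within groups, 0.51, was the highest of the 82, whose median was 0.16.

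The other tissue isoforms were dim or nearly so. Cox8b, the muscle form of subunit 8, lay between 16.6 and 21.8 on the 9 arrays, and Cox8c, a testis form, between 22.5 and 31.3. Ndufa4l2, the paralog of Ndufa4 that low oxygen induces in other cells, lay between 15.7 and 19.2. Cox7a1, the heart and muscle form of subunit 7A, and Cox7b2, a testis form of 7B, lay around the median intensity, between 26.5 and 38.4, and so did Cox4i2, a lung form of subunit 4, between 34.1 and 41.5. None of these 6 passed in any comparison, with log2 differences against whole marrow of -0.20 to 0.03 in the leukemias and -0.27 to 0.13 in lineage-negative marrow.

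**Figure D3:**
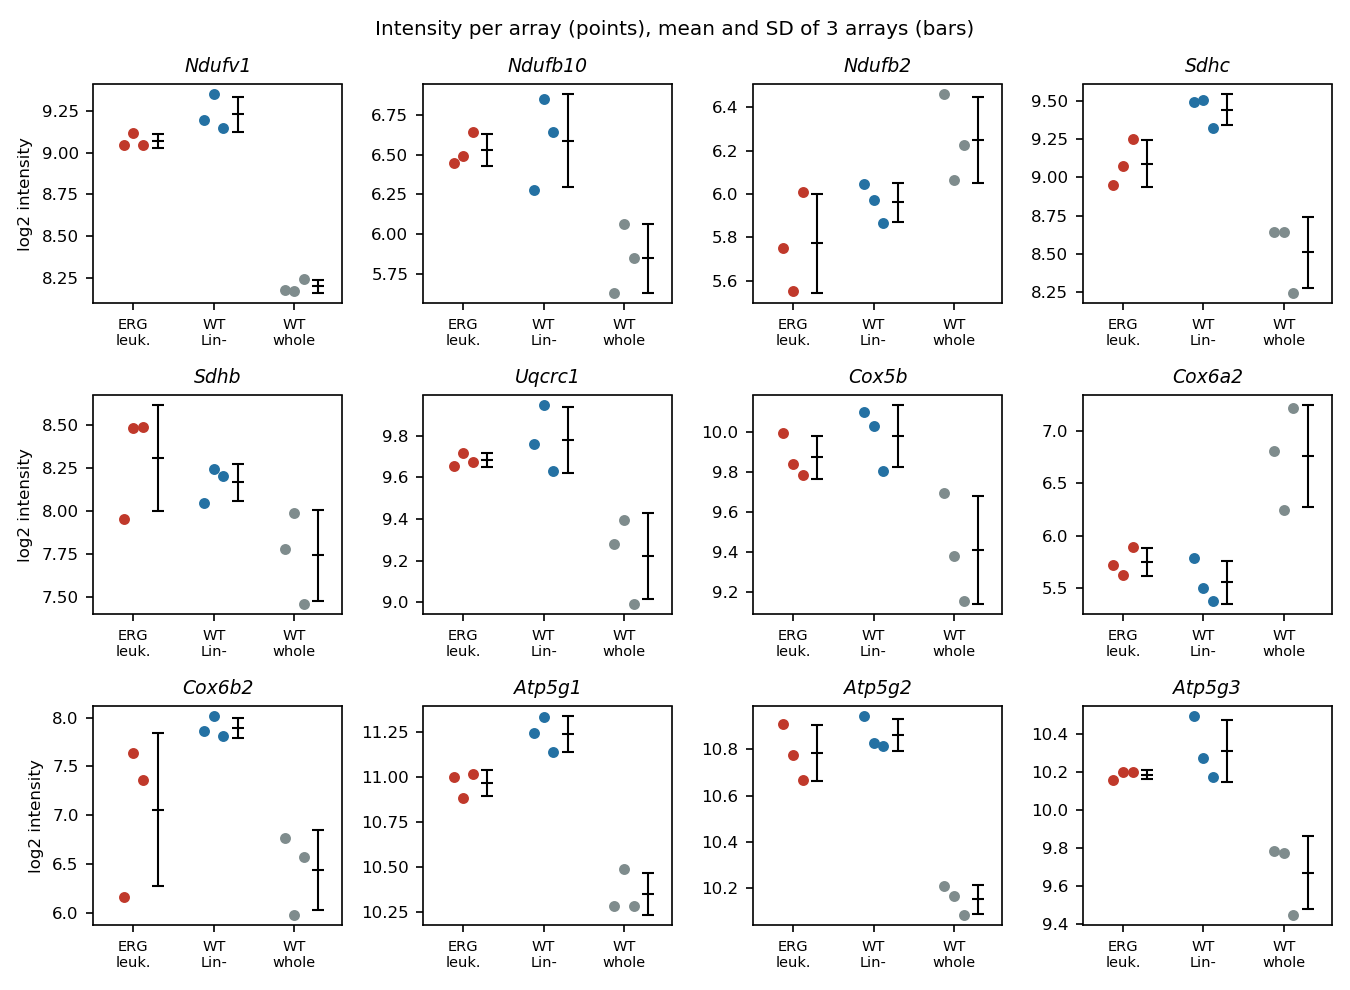
Log2 intensity of 12 members on each array (points), with the mean and SD of 3 arrays (bars), for ERG leukemia (left), wild type lineage-negative marrow (middle) and wild type whole marrow (right). The vertical axes differ between panels and do not start at 0. Whole marrow is lowest for Ndufv1 and the 3 subunit c genes and highest for Cox6a2 and Ndufb2, and the leukemias are spread widely for Cox6b2 and Sdhb.

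Complex V, the ATP synthase, had 6 of 17 genes higher in the leukemias than in whole marrow and 0 lower, with a median of 0.26 (0.20 without whole marrow array 3). Over all genes 14.6% were higher and 9.93% lower, and 26.9% and 17.8% with genes dim in all groups left out. The 6 were both members of the catalytic F1 hexamer, all 3 genes of subunit c and the stalk protein Atp5o, a grouping by role made after the values were seen. Atp5a1, the alpha subunit, read 1418, 1406 and 1321 in the ERG leukemias, 1417, 1434 and 1366 in lineage-negative and 929.6, 1009 and 963 in whole wild type marrow. Atp5b, the beta subunit that forms ATP, read 1941, 1948 and 1917 in the ERG leukemias, 1883, 1985 and 1896 in lineage-negative and 1511, 1521 and 1481 in whole wild type marrow. For both, the leukemias and lineage-negative marrow shared 1 range and whole marrow lay below it, with 0.51 ± 0.07 (limma adjusted p = 0.00146) and 0.36 ± 0.06 (limma adjusted p = 0.00351) in leukemia minus whole marrow. The Atp5b call was lost with 75th percentile centring (0.28). Against lineage-negative marrow the 95% intervals were -0.18 to 0.13 for Atp5a1 and -0.13 to 0.15 for Atp5b.

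Subunit c, the proton-carrying ring, is made from Atp5g1, Atp5g2 and Atp5g3, which encode the same mature protein behind different import sequences. Atp5g1 read 2046, 1890.2 and 2067 in the ERG leukemias, 2420.2, 2580.4 and 2253 in lineage-negative and 1243, 1432 and 1244 in whole wild type marrow. Atp5g2 read 1921, 1754 and 1627 in the ERG leukemias, 1966, 1817 and 1801 in lineage-negative and 1183, 1149 and 1086 in whole wild type marrow. Atp5g3 read 1144, 1179 and 1177 in the ERG leukemias, 1443, 1238 and 1156 in lineage-negative and 883, 878 and 699 in whole wild type marrow. In all 3 genes every whole marrow array lay below every other array, and Atp5g1 was also lower in every leukemia than in every lineage-negative array. Leukemia minus whole marrow was 0.62 ± 0.09 for Atp5g1 (limma adjusted p = 0.00193), 0.63 ± 0.08 for Atp5g2 (limma adjusted p = 0.00149) and 0.52 ± 0.12 for Atp5g3 (limma adjusted p = 0.0122, lost after cyclic loess at 0.35). Lineage-negative minus whole marrow was 0.89 ± 0.09, 0.71 ± 0.08 and 0.64 ± 0.12 in the same order, and all 3 passed in every alternative. Without the probes' sequences, signal shared between the 3 similar transcripts was not tested.

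The promoters of the 3 subunit c genes are shown because all 3 genes rose. They are the 250 bases before each start in RefSeq's GRCm38.p6 table, 5′ to 3′, all on the minus strand, at chr11:96075632-96075881 for Atp5g1, chr15:102671048-102671297 for Atp5g2 and chr2:73911327-73911576 for Atp5g3. Capitals mark the E-box CACGTG in Atp5g1 and Atp5g3 and the NRF1 site GCGCATGCGC in Atp5g2.
Atp5g1: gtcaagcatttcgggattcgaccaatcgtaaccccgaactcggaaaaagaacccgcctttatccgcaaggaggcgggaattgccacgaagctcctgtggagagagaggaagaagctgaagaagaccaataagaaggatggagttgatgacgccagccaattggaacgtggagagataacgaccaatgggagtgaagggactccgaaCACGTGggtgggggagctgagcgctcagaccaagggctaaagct
Atp5g2: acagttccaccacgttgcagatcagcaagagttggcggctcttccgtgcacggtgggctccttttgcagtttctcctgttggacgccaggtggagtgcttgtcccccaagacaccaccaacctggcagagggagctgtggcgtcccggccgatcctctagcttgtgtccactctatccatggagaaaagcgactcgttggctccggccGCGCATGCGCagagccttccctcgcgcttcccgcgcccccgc
Atp5g3: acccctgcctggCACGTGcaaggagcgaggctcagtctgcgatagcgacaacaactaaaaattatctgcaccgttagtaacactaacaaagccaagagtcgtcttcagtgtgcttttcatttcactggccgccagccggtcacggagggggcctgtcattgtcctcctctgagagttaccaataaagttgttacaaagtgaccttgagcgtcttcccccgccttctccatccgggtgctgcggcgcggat
The E-box starts at base 207 in Atp5g1 and at base 13 in Atp5g3, and the NRF1 site at base 209 in Atp5g2. None of the 4 motifs searched lies in all 3 printed windows. Ndufv1, printed above, holds the E-box too, and these 3 genes are the only ones with it among 18 matched members that were higher in the leukemias. Over all matched members the E-box was found in 8.96%, beside 9.52% of genes tested.

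Atp5o, the oligomycin sensitivity protein that ties the F1 head to the stator, read 265, 300.0 and 286 in the ERG leukemias, 319, 383 and 315 in lineage-negative and 202, 192 and 179 in whole wild type marrow. The 3 groups again formed separate ranges, with 0.57 ± 0.10 in leukemia minus whole marrow (limma adjusted p = 0.00412) and -0.25 ± 0.10 in leukemia minus lineage-negative marrow (limma adjusted p = 0.162). The 11 other genes of complex V did not pass against whole marrow and ran from -0.10 (Atp5l, subunit g) to 0.31 (Atp5mpl, limma adjusted p = 0.0526). They hold the central stalk genes Atp5c1 (0.01 ± 0.09), Atp5d (0.25 ± 0.11) and Atp5e (0.20 ± 0.15) and the peripheral stalk and membrane genes Atp5pb, Atp5h, Atp5j, Atp5j2, Atp5k, Atp5l, Atp5md and Atp5mpl. Atp5c1, the gamma subunit that turns inside the F1 head, read 851, 747 and 807 in the ERG leukemias, 814, 792 and 801 in lineage-negative and 867, 803 and 718 in whole wild type marrow, and all 3 groups overlapped. In lineage-negative marrow Atp5d (0.44 ± 0.11), Atp5j (0.49 ± 0.13) and Atp5mpl (0.41 ± 0.10) joined the same 6 genes above whole marrow. That made 9 of 17, beside 21.7% of all genes (38.8% with genes dim in all groups left out). The count came to 7 with centring, 6 (and 1 lower) after cyclic loess and 7 without whole marrow array 3. Atp5d and Atp5j were each lost after cyclic loess (0.31 and 0.21), without whole marrow array 3 (0.40 for both), without lineage-negative array 1 (0.41 and 0.44) and without lineage-negative array 2 (0.41 and 0.45), and Atp5mpl was lost in both scalings (0.28 and 0.16).

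The promoter windows of RefSeq's GRCm38.p6 table, 250 bases before to 50 bases after a gene's start, matched 67 of the 82 members and 15563 of the genes tested. The ETS motif CCGGAAG was found in 17 members (25.4%), against 13.6% of genes tested and 8.86% of all 32851 windows. The NRF1 half-site CATGCGC was found in 13 (19.4%, against 5.80% and 3.91%), the YY1 motif AAGATGG in 10 (14.9%, against 7.25% and 6.34%) and the E-box CACGTG in 6 (8.96%, against 9.52% and 7.15%). Both strands were searched, the letters of CCGGAAG and AAGATGG can overlap at AAG, and 32 members (47.8%) held at least 1 of the first 3, where 23.8% of genes tested did. NRF1, the ETS protein GABP and YY1 are textbook regulators of nuclear genes for mitochondria. Among 18 matched members that were higher in the leukemias than in whole marrow, 3 held the ETS motif, 5 the NRF1 half-site, 2 the YY1 motif and 3 the E-box, and among the 49 others 14, 8, 8 and 3 did. A letter match is a description and was not tested as a binding site.

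The genes that build, feed and regulate the chain were counted from lists drawn up from textbook membership. These lists were chosen with earlier results of these data known. Over all genes tested 14.6% were higher in the leukemias than in whole marrow and 9.93% lower, and the 153 genes measured in the assembly and neighbouring pathway lists gave 79 higher (51.6%) and 1 lower. They gave 67 higher and 2 lower with 75th percentile centring, where 11.1% and 12.2% of all genes were so called, and 65 higher and 3 lower after cyclic loess (10.9% and 12.2%). With genes dim in all groups left out it was 78 of 149 (52.3%), beside 26.9% of the genes kept. Without whole marrow array 3 it was 59 higher, beside 2404 of all 19938 genes. These recounts of the lists were added after the data were seen. Without that array the count fell to 6 for complex I assembly, 1 each for complex II and III assembly and 7 for mitochondrial DNA expression, and complex III assembly also came to 1 after cyclic loess. Of 17 measured complex I assembly genes 11 were higher in the leukemias than in whole marrow and 0 lower (median 0.43), led by Dmac1 at 1.32 ± 0.17 (limma adjusted p = 0.00149). Dmac1, a membrane arm assembly factor, read 818, 682 and 588 in the ERG leukemias, 627, 550.0 and 470.3 in lineage-negative and 336, 270.1 and 231 in whole wild type marrow. The assembly lists gave 3 of 4 higher for complex II (Sdhaf1 0.63 ± 0.15), 2 of 6 for complex III (Bcs1l 0.79 ± 0.13), 11 of 22 for complex IV (Cox18 0.99 ± 0.22) and 3 of 5 for complex V (Atpaf2 0.80 ± 0.14), with 0 lower in each. Bcs1l inserts the Rieske protein, Cox18 inserts subunit 2 of complex IV and Atpaf2 helps form F1. Medians of these 5 lists ran from 0.31 to 0.58, against -0.02 for all genes. Atpif1, the inhibitor protein of the ATP synthase, read 2225, 2797 and 2338 in the ERG leukemias, 2210.1, 2547 and 2336 in lineage-negative and 1512, 1539.7 and 1473 in whole wild type marrow and was 0.70 ± 0.10 higher in the leukemias (limma adjusted p = 0.00193), and it was the 1 of 3 uncoupling and inhibitor genes that passed.

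The neighbouring pathways were counted in the same way. Of 6 cytochrome c and partner genes 3 were higher, Etfa (0.70 ± 0.14), which feeds electrons from fatty acid oxidation, most of all. TCA cycle genes were higher in 6 of 12 (Suclg2 1.18 ± 0.13, limma adjusted p = 0.000852), pyruvate dehydrogenase genes in 4 of 11, coenzyme Q synthesis genes in 4 of 12 (Coq5 0.74 ± 0.17), mitochondrial DNA replication and expression genes in 11 of 18 (Lrpprc 0.85 ± 0.17) and import and outer membrane genes in 19 of 27 (Timm17a 1.06 ± 0.15), with 0 lower in each. In the pyruvate dehydrogenase list the largest rise was that of Pdk2 (1.33 ± 0.14, limma adjusted p = 0.000755), a kinase that switches the enzyme off. Among 10 biogenesis regulators 1 was higher and 1 lower: Pprc1, a coactivator of the PGC-1 family, read 131, 172 and 123 in the ERG leukemias, 199, 241 and 207 in lineage-negative and 66.5, 48.1 and 71.5 in whole wild type marrow (1.20 ± 0.18, limma adjusted p = 0.0022), and Ppargc1a, PGC-1 alpha, read 23.4, 20.9 and 24.7 in the ERG leukemias, 25.6, 22.8 and 22.2 in lineage-negative and 33.5, 29.5 and 39.1 in whole wild type marrow (-0.56 ± 0.12, limma adjusted p = 0.00957). Ppargc1a was dim in the leukemias and in lineage-negative marrow. The subunits encoded in mitochondrial DNA were not analysed here.

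Against lineage-negative marrow the lists gave 0 higher and 23 lower of 153 (15.0%), beside 2.95% and 5.74% of all genes. With genes dim in all groups left out 25 of 149 were lower (16.8%, beside 9.96%), with centring 18 were, and after cyclic loess 2 were higher and 13 lower. Single lists hold few genes, and several counts below moved. After cyclic loess complex I assembly came to 0 lower, complex IV assembly to 1 (and 1 higher) and import and outer membrane to 3. Pyruvate dehydrogenase and coenzyme Q synthesis came to 1 lower in both scalings, coenzyme Q with 1 higher after loess. The TCA cycle came to 1 with centring. The number lower was 2 of 17 for complex I assembly, 2 of 22 for complex IV assembly (Cox10 -0.63 ± 0.08), 2 of 12 for the TCA cycle (Suclg2 -0.55 ± 0.13), 3 of 11 for pyruvate dehydrogenase (Pdk1 -0.50 ± 0.13), 5 of 18 for mitochondrial DNA replication and expression (Fastkd2 -0.81 ± 0.16), 6 of 27 for import and outer membrane (Hspd1 -0.70 ± 0.15), 2 of 12 for coenzyme Q synthesis (Pdss2 -0.52 ± 0.09) and 1 of 10 for the biogenesis regulators (Sirt3 -0.89 ± 0.13). For the assembly lists of complexes II, III and V, cytochrome c and its partners, and uncoupling and inhibitor genes it was 0. Sirt3, a mitochondrial deacetylase, read 67.1, 55.7 and 57.5 in the ERG leukemias, 130.2, 94.1 and 111 in lineage-negative and 67.0, 60.4 and 58.0 in whole wild type marrow, and the leukemias overlapped with whole marrow (limma adjusted p = 0.00582 against lineage-negative marrow and 0.864 against whole marrow). In lineage-negative against whole marrow 105 of the 153 were higher (68.6%) and 1 lower, beside 21.7% and 13% of all genes, and with genes dim in all groups left out 107 of 149 were higher (71.8%, beside 38.8%). With centring 88 were higher and after cyclic loess 82, where 16.8% and 16.3% of all genes were. In those scalings coenzyme Q came to 4 in both, the regulators to 3 in both, cytochrome c and its partners to 2 and 1, and the TCA cycle to 7 after cyclic loess. Without whole marrow array 3 coenzyme Q came to 5 and cytochrome c and its partners to 2. By list the numbers higher were 13 of 17, 3 of 4, 3 of 6, 13 of 22 and 4 of 5 for the assembly lists of complexes I to V, 4 of 6 for cytochrome c and its partners, 11 of 12 for the TCA cycle, 7 of 11 for pyruvate dehydrogenase, 13 of 18 for mitochondrial DNA expression, 20 of 27 for import, 8 of 12 for coenzyme Q, 1 of 3 for uncoupling and inhibitor genes and 5 of 10 for the regulators, of which Ppargc1a alone was lower (-0.53 ± 0.12).

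The scale set between arrays moved the sizes above. With arrays centred at the 75th percentile of their values, 15 members were higher and 2 lower in leukemic than in whole marrow (11.1% and 12.2% of all genes), and after cyclic loess 13 were higher and 2 lower (10.9% and 12.2% of all genes). Higher calls made up 59.4% of all calls over all genes as deposited, 47.7% with centring and 47.2% after loess. In lineage-negative against whole marrow 30 members were higher and 3 lower with centring (16.8% and 16.5% of all genes) and 19 higher and 6 lower after loess (16.3% and 15.5%), while the share of higher calls over all genes was 62.6% as deposited, 50.3% and 51.2%. For the leukemias against lineage-negative marrow the share was 34.0%, 44.0% and 44.9%, and 0 members were higher or lower with centring (3.59% and 4.56% of all genes) or after loess (3.61% and 4.42%). Centring moved the median of all genes to -0.16 in lineage-negative minus whole marrow, -0.10 in leukemia minus whole marrow and 0.05 in leukemia minus lineage-negative marrow, and the members' medians were then 0.27, 0.18 and -0.06 for these comparisons.

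**Figure D4:**
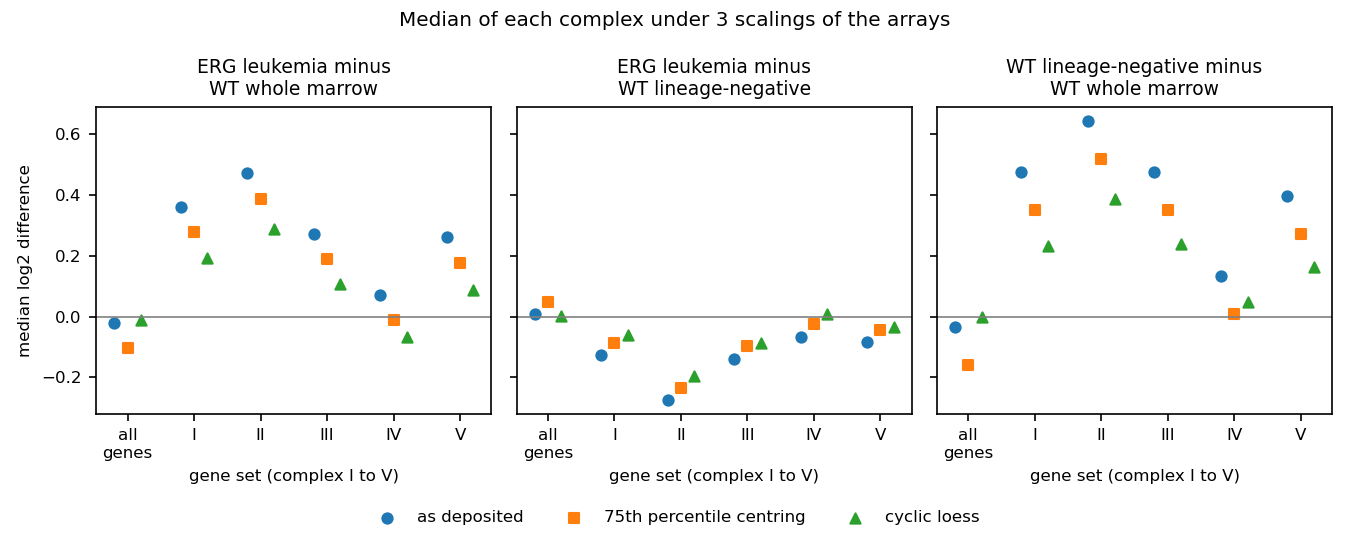
Median log2 difference (vertical axis, log2 units) of all genes and of complexes I to V in each comparison, with the values as deposited (circles), with 75th percentile centring (squares) and after cyclic loess (triangles). The medians of complexes I, II, III and V keep their sign under all 3 scalings, and that of complex IV in leukemia minus whole marrow goes below 0 under both alternatives.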

How the data were processed

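RNA of 9 mouse marrow samples, 3 for each of 3 groups, was read on Affymetrix arrays. The deposited values are intensities on a linear scale that the authors made with RMA in Partek, per the submitters' processing notes, with versions and genome build not given in the sources used here. The number of arrays, 3 a group, limits the precision.

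Intensities were taken to log2. Of 28853 probe sets 21789 had 1 gene symbol in the platform annotation, 1621 had several and 5443 had none, and the probe set with the highest mean stood for each of 19938 genes. Of the 82 members 17 had several probe sets, which disagreed in sign for 1 gene (Cox6c) in leukemia minus whole marrow. They did so for 2 genes (Cox7a2l and Ndufb11) in leukemia minus lineage-negative marrow and for 1 (Ndufb11) in lineage-negative minus whole marrow. Sizes differed too: in leukemia minus whole marrow Ndufc1 stood at 0.56 on the probe set used and 0.29 on the other, and Ndufa11 at 0.26 and 0.55. Cox7c and Ndufb4, found on probe sets with several symbols, were not analysed here. The 3 groups were fitted together with limma 3.58.1 (R 4.3.3; lmFit, contrasts and eBayes without trend), with 6 residual and 2.62 prior degrees of freedom and Benjamini-Hochberg adjustment over all genes at 0.05. Errors after ± are standard errors of limma's log2 differences, and intervals are 95% intervals. The fit was tested on simulated data. Tables and figures were made with Python 3.11.15, pandas 2.3.3 and matplotlib 3.10.9.

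Named with values were the members past the threshold with the largest differences in each complex and direction, the paralog families of complex IV, the subunit c and Sdh genes, and the leading gene of each list. Further members are named in their ranges. The members, gene lists and tests were chosen with earlier results of these data known. Leukemias were numbered in accession order. Replicate numbers of the wild type groups were not used to pair the arrays, because the mice differ. Deviations of same-numbered arrays correlated at 0.31, -0.01 and -0.01 and those of other pairs at -0.20 to 0.15. With so few arrays these values cannot settle whether the arrays pair. The lineage-negative arrays are pools, so their spread is not that of single mice.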

Additional observations from a re-analysis of the deposited data

How the results depend on the processing

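The limits are 3 arrays a group, a scale set between arrays by RMA and cell types that differ between groups. Across the alternatives run, 15 for leukemias against whole marrow and 16 for the wild type groups, no called member's difference changed sign, and 11 of 24 calls against whole marrow in the leukemias and 19 of 41 in lineage-negative marrow were kept in every one.

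For the leukemias against whole marrow, leaving out 1 array at a time gave 17 to 25 members higher and 1 to 2 lower, cyclic loess gave 13 higher, and comparing only the 2 groups gave 1 lower. Of all 19938 genes, 2350 to 2835 were higher and 1248 to 1915 lower with 1 array left out. The median of all members ran from 0.21 to 0.32 with 1 array left out and was 0.11 after loess. By complex, the ranges with 1 array left out and the loess values were 0.28 to 0.38 and 0.19 (I), 0.39 to 0.54 and 0.29 (II), 0.18 to 0.34 and 0.11 (III), 0.0079 to 0.12 and -0.068 (IV), and 0.20 to 0.34 and 0.088 (V). With 75th percentile centring complex IV was at -0.0127. The cause of the reversal of complex IV was not tested.

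Against lineage-negative marrow the count stayed at 0 in both directions under every alternative run. With 1 array left out, the medians ran from -0.14 to -0.07 (all members), -0.15 to -0.09 (I), -0.37 to -0.17 (II), -0.22 to -0.09 (III), -0.11 to -0.0041 (IV) and -0.13 to -0.04 (V), and complex IV was at 0.0081 after loess.

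For lineage-negative against whole marrow, leaving out 1 array gave 28 to 39 members higher and 1 to 2 lower, and loess gave 19 higher and 6 lower. Of all 19938 genes, 3611 to 4462 were higher and 1863 to 2748 lower with 1 array left out. The number of members lower was 3 with centring, 2 with the robust trended fit and 2 with only the 2 groups compared. With the replicate number as a block, 43 were higher and 1 lower, while deviations of same-numbered arrays correlated at 0.31, -0.01 and -0.01. The medians, as the range with 1 array left out and the value after loess, were 0.33 to 0.44 and 0.14 (all members), 0.39 to 0.53 and 0.23 (I), 0.58 to 0.74 and 0.39 (II), 0.40 to 0.53 and 0.24 (III), 0.09 to 0.18 and 0.048 (IV), and 0.33 to 0.41 and 0.16 (V). Centring gave 0.27 (all members), 0.35 (I), 0.0087 (IV) and 0.27 (V).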

Other observations

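Ndufs4, an accessory subunit of complex I whose loss in mice causes a Leigh-like disease, spread more within groups than any other member but Cox6b2, with a pooled SD of 0.46 on the log2 scale against a median of 0.16 over the 82 members. It read 1280.4, 1236 and 749 in the ERG leukemias, 734, 1404 and 1387 in lineage-negative and 961, 1460.5 and 873 in whole wild type marrow. Each group held at least 1 array well away from the others, and the log2 differences were -0.02 ± 0.32 for leukemia minus whole marrow and 0.07 ± 0.32 for lineage-negative minus whole marrow (limma adjusted p = 0.982 and 0.881).

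Arrays of a group also differed over the members as a set. Leukemia 3 gave the highest value of its group in 43 of 82 members, lineage-negative array 2 in 48, and lineage-negative array 3 gave the lowest in 54. The median over the members relative to the whole marrow mean was 0.18, 0.26 and 0.35 for leukemias 1, 2 and 3, and 0.35, 0.48 and 0.33 for lineage-negative arrays 1, 2 and 3.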
